A study of Mus musculus with 2 samples.

Results

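Mir151, Mir652, Mir744, Mir423, Mir342, Mir139 and Mir149 are 7 mouse microRNA genes that each lie alone in an intron of a protein-coding gene. They were picked by name, and chosen by their measured level in these libraries, out of 1973 microRNA genes in the tables. The tissue was lung, taken whole from healthy mouse embryos 15.5 days into development, of a strain labelled B6NCrl. The 1 group has 2 libraries. Replicate 1 was made from the pooled lungs of 78 embryos and replicate 2 from those of 62 embryos, both pools holding males and females, so neither sex nor single animals can be separated. Both carry 1 donor identifier. Small RNA with inserts shorter than 30 nt was sequenced. There is no treatment, genotype or time to compare, and the members' levels are given as a description, with no test.

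An intronic microRNA is transcribed as part of its host gene's primary transcript. Drosha cuts the hairpin precursor out of the intron, Dicer cuts off the loop, and 1 strand of the resulting duplex is loaded into an Argonaute protein, where bases 2 to 8 of the mature strand, the seed, pair with target mRNAs. Such microRNAs are often made together with their host mRNA, although some introns also hold a promoter of their own. The tables hold microRNA genes only, so host mRNA was not measured and no host level can be set beside a microRNA level. A gene in the tables is a whole precursor, and the products of its 5′ and 3′ arms were counted together.

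The mature arms of 6 of the 7 members are shown because their seeds set which mRNAs each can pair with. They come from RefSeq on GRCm38.p6, the assembly that mm10 denotes, and are written 5′ to 3′ with the seed in capitals. Mir151 has no entry in that table.
miR-652-5p: cAACCCUAggagggggugccauuc
miR-652-3p: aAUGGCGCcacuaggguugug
miR-744-5p: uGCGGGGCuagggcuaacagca
miR-744-3p: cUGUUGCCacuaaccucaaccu
miR-423-5p: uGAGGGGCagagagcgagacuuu
miR-423-3p: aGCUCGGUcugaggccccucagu
miR-342-5p: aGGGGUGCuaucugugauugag
miR-342-3p: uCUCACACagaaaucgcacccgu
miR-139-5p: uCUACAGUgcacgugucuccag
miR-139-3p: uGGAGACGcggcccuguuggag
miR-149-5p: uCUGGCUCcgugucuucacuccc
miR-149-3p: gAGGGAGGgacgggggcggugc

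The 12 arms are 21 to 24 nt long and carry 12 different seeds. The closest pair of seeds, those of miR-423-5p and miR-744-5p, differ at 1 of 7 positions, and 3 further pairs of the 66 differ at 2 positions. For 10 of the 12 arms, none of the 1738 RefSeq mature entries of another gene has the same seed. The 2 exceptions are miR-149-3p, whose seed 4 other genes share, and miR-423-5p, whose seed 1 other gene shares. The genes sharing these seeds had few counts or none. Mir1943, in an intron of Tmem184b, had 13 and 15 counts in replicates 1 and 2, just above the 10 that detection asked for in each library. Mir7016 had 1 count in each library, and Gm27775, Gm27740 and Mir6921 had 0. Gm27775 and Gm27740 carry the same mature arm, whose reads would map to both, and reads mapped to several places were not counted, so their 0 is not read as absence. Which arm of each member was sequenced cannot be read from counts per precursor. Of the 12 arms, 6 begin with U, 3 with A, 2 with C and 1 with G.

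The hairpins of 3 members are printed whole, for the highest member with an entry, the member closest to its host's first exon, and the member with the most GC. Capitals mark the 2 mature arms.
Mir652: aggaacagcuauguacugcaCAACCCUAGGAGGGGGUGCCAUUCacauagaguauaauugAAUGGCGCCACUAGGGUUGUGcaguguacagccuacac
Mir423: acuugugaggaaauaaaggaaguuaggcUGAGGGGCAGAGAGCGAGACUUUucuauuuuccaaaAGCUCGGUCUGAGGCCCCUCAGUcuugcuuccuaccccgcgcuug
Mir149: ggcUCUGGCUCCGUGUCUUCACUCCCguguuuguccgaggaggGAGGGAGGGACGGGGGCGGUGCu

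Folded in silico with RNAfold, the 6 hairpins had minimum free energies of -0.45 to -0.56 kcal/mol per nt, with a median of -0.49. The median was -0.45 over the 83 other solitary intronic hairpins that were detected and -0.41 over all 869 hairpins of table genes with an entry. Their GC content ran from 50% to 68.2% with a median of 53.8%, against a median of 51.9% for the 83 and 52.3% for the 869. Mir149 was the richest in GC of the 6 and had the lowest energy per nt, -0.56. The Mir652 hairpin, with a GC content of 50%, had -0.50.

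Replicate 1 had 5354530 gene counts, all from the column taken as the strand of the annotated microRNA, and replicate 2 had 6489390. A single count equalled 0.187 CPM (counts per 1000000 gene counts of that library) in replicate 1 and 0.154 CPM in replicate 2. Each member had over 10000 counts in each library. The spread between the pools covers pooling, dissection and library preparation. The list of smooth muscle and mesenchyme (Mir143, Mir145a and Mir214) led the marker lists with a summed 85513 ± 3902 CPM. Mir126a of endothelium followed at 67953 ± 1347 CPM, and the 5 miR-200 genes of epithelium at 31707 ± 326 CPM (SD, n = 2).

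**Figure D1:**
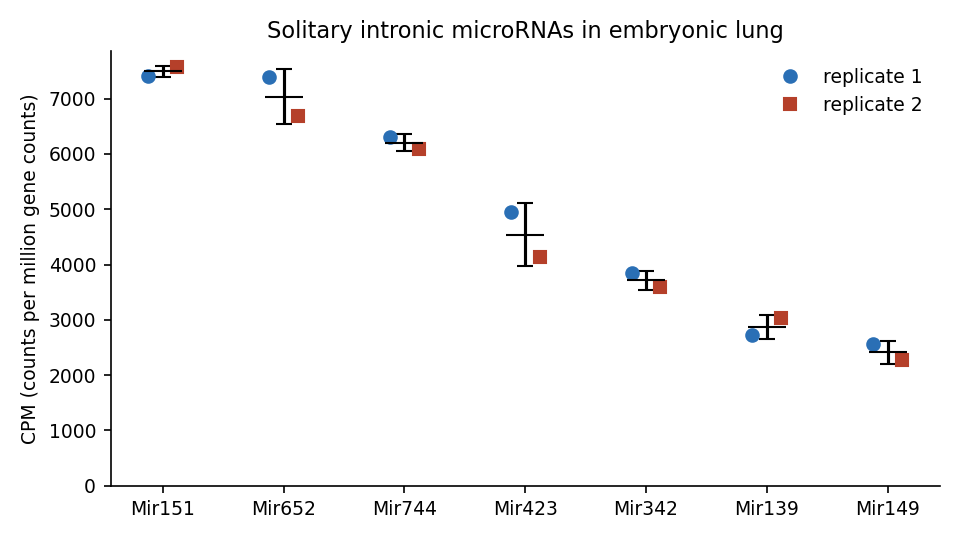
CPM of the 7 members in the 2 libraries, with blue circles for replicate 1, red squares for replicate 2, and the mean ± SD in black. Mir151 was highest at 7493 CPM and Mir149 lowest at 2412 CPM, and the libraries differed most for Mir423.

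Together the 7 members held 3.52% of the gene counts in replicate 1 (188355 counts; 95% exact binomial interval 3.50 to 3.53%) and 3.34% in replicate 2 (216469 counts; 3.32 to 3.35%). The mean share was 3.43% ± 0.129 (SD, n = 2). These intervals, and those given later, cover only the counting error of reads. The sources name no molecular identifiers, so amplified copies of 1 molecule could not be told from separate molecules. The intervals may therefore be too narrow. All 7 had at least 10 counts in both libraries, against 18.1% of the 1973 genes, and all 7 exceeded a mean of 1000 CPM, against 4.82% of the genes. High level is what picked the members, so nothing is read from either count. They took ranks 27 to 59 among all microRNA genes by mean CPM.

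Mir151 had 39724 counts in replicate 1 and 49107 in replicate 2, which are 7419 and 7567 CPM. Its mean was 7493 ± 105 CPM (SD, n = 2), rank 27 in both libraries. It lies in Ptk2, which encodes focal adhesion kinase, a regulator of cell adhesion and migration, and human miR-151 has been studied with its host in liver cancer cell migration. Mir652 followed with 39545 and 43375 counts, 7385 and 6684 CPM in replicates 1 and 2, a mean of 7035 ± 496 CPM. Its host Tmem164 encodes a membrane protein. The libraries were close for Mir151 and further apart for Mir652, and in replicate 1 these 2 members were nearly level.

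Mir744 had 33804 and 39533 counts, 6313 and 6092 CPM in replicates 1 and 2, with a mean of 6203 ± 156 CPM. Its host Map2k4 encodes a kinase that activates the JNK pathway. Mir423 had 26488 and 26825 counts, 4947 and 4134 CPM, with a mean of 4540 ± 575 CPM. The counts of Mir423 were nearly equal although replicate 2 was the deeper library, so its CPM was lower there. Nsrp1, its host, encodes a nuclear speckle protein that acts in splicing.

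Mir342 had 20552 and 23283 counts, 3838 and 3588 CPM in replicates 1 and 2, with a mean of 3713 ± 177 CPM. Its host Evl encodes an actin regulator of the Ena/VASP family. Mir139, in an intron of the cyclic nucleotide phosphodiesterase gene Pde2a, had 14548 and 19633 counts, 2717 and 3025 CPM, with a mean of 2871 ± 218 CPM. Mir149, in an intron of the heparan sulfate proteoglycan gene Gpc1, had 13694 and 14713 counts, 2557 and 2267 CPM, with a mean of 2412 ± 205 CPM (SD, n = 2 for each). Mir139 was higher in replicate 2 and the other 2 of these 3 members were lower there. The levels of the 7 genes thus spanned 3.11-fold, a log2 ratio of Mir151 over Mir149 of 1.64 ± 0.143.

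The order of the levels was compared within each library. The pairs were set by the mean CPM of these same libraries, so a mean ratio above 0 follows from that sorting. With n = 2, a mean above its SD is a weak demand. Mir151 and Mir652 did not differ beyond their spread, with a log2 ratio of 0.01 in replicate 1 and 0.18 in replicate 2 (mean 0.09 ± 0.122, SD, n = 2). The other 5 of the 6 neighbouring pairs kept their order in both libraries with a mean above its SD. Mir744 over Mir423 was the widest step, at 1.37-fold (log2 0.46 ± 0.147), followed by Mir342 over Mir139 at 1.29-fold (log2 0.37 ± 0.179) and Mir423 over Mir342 at 1.22-fold (log2 0.29 ± 0.114). Mir652 exceeded Mir744 by 1.13-fold (log2 0.18 ± 0.0654). Mir139 over Mir149 was the least certain of the 5, with log2 ratios of 0.09 in replicate 1 and 0.42 in replicate 2 (mean 0.25 ± 0.233). Ligation and amplification favour some sequences over others in both libraries alike, which this spread does not show.

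MicroRNAs of several cell types and clusters stood next to the members in level. Beside Mir151 stood Mir449a of multiciliated cells, at 8097 ± 671 CPM, and Mir652 itself. The gene next below Mir652 was Mir30d, at 6851 ± 427 CPM. Mir744 stood between Mir106b (6313 ± 275 CPM), in an intron of Mcm7, and Mir487b of the imprinted chromosome 12 cluster (6134 ± 351 CPM). Mir181c (4561 ± 219 CPM) and Mir375 (4578 ± 498 CPM) were level with Mir423, and Mir382 (3705 ± 97.5 CPM) with Mir342. Mir361, an intronic microRNA of Chm, was level with Mir149 at 2405 ± 12.7 CPM (SD, n = 2). Likeness here is the nearness in mean CPM over the 2 libraries and nothing more.

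**Figure D2:**
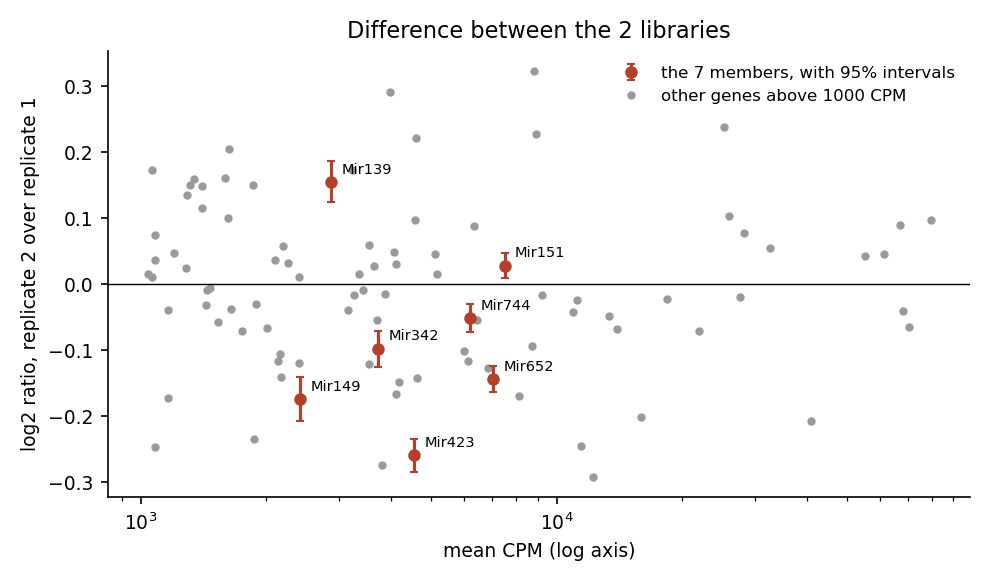
Log2 ratio of replicate 2 over replicate 1 against mean CPM (log axis) for the 7 members in red, with 95% exact binomial intervals, and the other genes above a mean of 1000 CPM in grey. Mir139 and Mir151 lie above 0 and the other 5 members below, Mir423 lowest at -0.26.

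The difference between the pools was larger than the counting error of reads for each member at the library sizes used here. For Mir744 it was not when counts were scaled to the reads of the whole library (log2 ratio -0.020). The log2 ratio of replicate 2 over replicate 1 was 0.16 for Mir139 (95% exact binomial interval 0.12 to 0.19) and 0.03 for Mir151 (0.01 to 0.05). Mir151's small ratio ran up to 0.06 under the other scalings, of the same sign. The ratio of the pools was -0.26 for Mir423 (-0.28 to -0.23), -0.17 for Mir149 (-0.21 to -0.14), -0.14 for Mir652 (-0.16 to -0.12), -0.10 for Mir342 (-0.12 to -0.07) and -0.05 for Mir744 (-0.07 to -0.03). All 7 intervals lay off 0, as did 44.8% of the 357 detected genes and 80% of the 95 genes with a mean above 1000 CPM. Of those 95, 43.2% lay wholly below 0 and 36.8% wholly above, beside 5 and 2 of the members.

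The median log2 ratio was -0.10 over the members, -0.01 over the genes above 1000 CPM and 0.01 over all detected genes. Its median size was 0.14 over the members, 0.08 over the genes above 1000 CPM and 0.14 over all detected genes, which include many with few counts. Mir423 differed more than 94.7% of the genes above 1000 CPM, Mir149 more than 84.2% of them, Mir139 more than 75.8%, Mir652 more than 70.5%, Mir342 more than 54.7%, Mir744 more than 35.8% and Mir151 more than 16.8%. Markers of lung cell types and of other tissues also differed between the pools. Multiciliated cell genes summed to 9174 CPM in replicate 1 and 8246 CPM in replicate 2, and Mir375 of neuroendocrine epithelium had 4226 and 4930 CPM. Smooth muscle and mesenchyme, endothelium and epithelium differed less, with ratios of replicate 2 over replicate 1 of 1.07, 0.97 and 0.99. Striated muscle and heart genes (4 of 8 in the table detected) summed to 929 CPM in replicate 1 and 1239 CPM in replicate 2, with Mir1a-1, Mir133a-1 and Mir133a-2 at 0. Members of that list differed in opposite directions, and without Mir208b, left out after its values were seen, the sums were 660 and 459 CPM. Liver genes (2 of 2 detected) summed to 526 and 340 CPM, and nervous system genes (2 of 7 detected) to 286 and 182 CPM, with the Mir124a copies and Mir9-2 at 0. Copies with identical sequence can be counted as 0. Erythroid genes (2 of 2 detected) summed to 684 and 833 CPM and leukocyte genes (3 of 4 detected, Mir142b at 0) to 850 and 767 CPM. The part of these cell types and tissues in the members' differences was not tested. In a bulk sample, fewer cells of a type and less RNA per cell cannot be told apart.

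**Figure D3:**
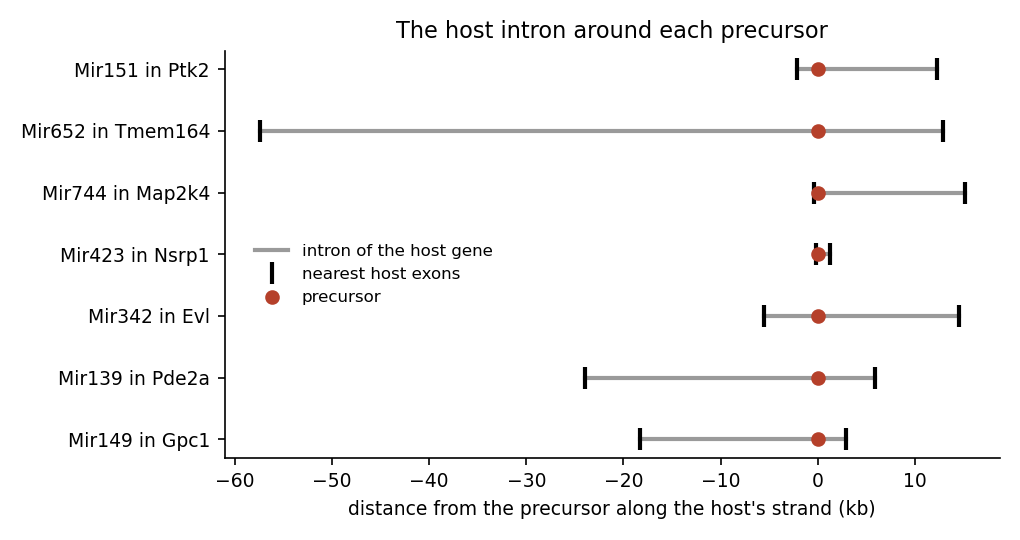
The host intron around each precursor, drawn to scale in kb along the host's strand, with the precursor (red) at 0 and black ticks at the nearest upstream (left) and downstream (right) host exons. Mir652 lies in the longest intron, 70483 bp, and Mir423 in the shortest, 1634 bp.

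All 7 precursors were intronic in every transcript of the named host that spans them in GENCODE M21, with 0 exon overlaps, on the strand of the host. They lie on 6 chromosomes of the mm10 assembly, 4 on the plus strand and 3 on the minus strand. A first intron holds 3 of them. Mir652 (ENSMUSG00000076011.1) is on chromosome X at 142739000 to 142739097, plus strand, in intron 1 of Tmem164, 57443 bp after the first exon and 12942 bp before the next. Mir423 (ENSMUSG00000065518.2) is on chromosome 11 at 77078064 to 77078172, minus strand, in intron 1 of Nsrp1, only 206 bp after the first exon and 263 bp from the annotated start of the gene. Mir149 (ENSMUSG00000065470.1) is on chromosome 1 at 92850378 to 92850443, plus strand, in intron 1 of Gpc1, 18280 bp after the first exon.

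The other 4 lie in introns after the first. Mir139 (ENSMUSG00000065446.1) is on chromosome 7 at 101475376 to 101475443, plus strand, in intron 2 of Pde2a, an intron of 29902 bp; the overlapping gene Gm45837 also contains it, so that either transcript could hold the hairpin. Mir744 (ENSMUSG00000076460.1) is on chromosome 11 at 65734733 to 65734832, minus strand, in intron 3 of Map2k4, 359 bp after the upstream exon of a 15588 bp intron. Mir342 (ENSMUSG00000065436.1) is on chromosome 12 at 108658620 to 108658718, plus strand, in intron 4 of Evl, an intron of 20189 bp. Mir151 (ENSMUSG00000065612.1) is on chromosome 15 at 73254815 to 73254882, minus strand, in intron 23 of Ptk2, 168398 bp from the annotated start of the gene. Intron numbers are those of 1 protein-coding transcript per host and differ between transcripts. The member furthest from its host's start, Mir151, was the highest and the nearest, Mir423, stood in the middle. Whether level goes with depth in the host was not tested.

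None of the 7 hosts contains a further precursor, and the nearest precursor on the same strand was 178254 to 2809945 bp away. That neighbour was at or near 0 for 5 of the members: Mir6952 had 1 and 0 counts in replicates 1 and 2, Mir6901 had 7 and 8, and Mir680-2, Gm25991 and Gm22655 had 0. The neighbour of Mir342, Mir345, stood at 73.3 ± 3.36 CPM (SD, n = 2). The neighbour of Mir423, Mir451b, was not analysed here. Mir744 and Mir423, both on the minus strand of chromosome 11, are 11343231 bp apart.

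Reads in the column taken as the opposite strand, a measure the choice of members did not use, were 0 at all 7 precursors in both libraries. Over all genes they made up 2.89% of the reads in genes, and 320 of the 357 detected genes had none, so 0 is the common value. Mir151 lies opposite a transcript of 1700085D07Rik, and no read was counted in that column there. None of the 7 precursors shares a stretch of 20 nt with another annotated precursor, as 929 of 1894 do, so these counts are not split between precursor copies; copies elsewhere in the genome were not searched.

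**Figure D4:**
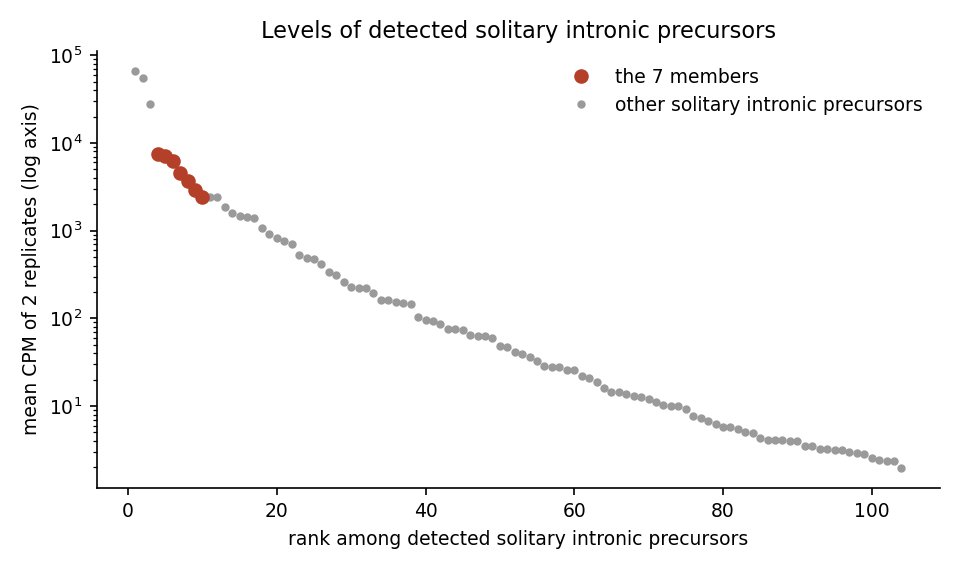
Mean CPM of the 2 replicates (log axis) by rank for the 104 detected solitary intronic precursors, with the 7 members in red. They fill ranks 4 to 10, below a group of 3 and next to Mir361 and Mir455, which stood at 2405 and 2397 CPM.

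The tables hold 553 precursors of the same genomic kind, inside an intron of a host on the same strand, overlapping no exon of that host and with no other precursor within 10000 bp on that strand. The 7 members rank 4 to 10 among them. Mir151, the highest member, was well separated from the gene just above it, Mir26b in an intron of Ctdsp1, at 28173 ± 1080 CPM. The log2 ratio of Mir151 over Mir26b was -1.91 ± 0.0351. Just below stood Mir361, at 2405 ± 12.7 CPM, and Mir455, in an intron of the collagen gene Col27a1, at 2397 ± 139 CPM (SD, n = 2). The lowest member was not separated from these. The log2 ratio of Mir149 over Mir361 was 0.09 in replicate 1 and -0.09 in replicate 2, and that of Mir149 over Mir455 was 0.04 and -0.02. Mir140, at 3345 ± 26.4 CPM between Mir342 and Mir139, fell outside the 553 because 1 of the 4 Wwp2 transcripts that span it has an exon there. Both the exclusion of such cases and their inclusion as an alternative were set after the values were seen. With them included the kind has 620 precursors and the members rank 6 to 13, below Mir126a and Mirlet7i as well and with Mir140 among them.

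The level of the members was far from typical of the kind, as their choice requires. Of the other 546 solitary intronic precursors, 97 were detected, with a median of 28.4 CPM among those 97, and 281 had 0 counts in both libraries. The whole kind held 20.7% ± 0.419 of the gene counts (SD, n = 2), of which Mirlet7g, Mir335 and Mir26b together made up 15.0% ± 0.517 of all gene counts. The 7 members held 16.5% ± 0.954 of the counts of the whole kind, and 59.9% ± 1.22 of them with those 3 left out.

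Features that did not enter the choice were compared by counts and medians only. The members' introns had a median of 20189 bp, against 6572 bp for the other 546 and 9571 bp for the 97 detected among them. A first intron held 3 of 7 members, or 42.9%, and 138 of the 546 others, or 25.3%. The nearest host exon was 206 to 12942 bp away, with a median of 2903 bp against 932 bp. No member lay within 50 bp of an exon. Of the 546 others 154 did, but of the 97 detected among them 5 did, and of the 11 with a mean above 1000 CPM 0 did. Hosts had a median length of 100055 bp, against 56062 bp for the hosts of the 546 others. The first-intron share and the medians of exon distance and host length were not taken over the 97 detected alone. With 7 chosen genes these are descriptions and nothing particular to the members is read from them.

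A list of 32 other microRNAs known as intronic gave the members a background of named genes. Of these, 30 were in the table under the listed name and 29 were detected, with a median of 193 CPM among the 29, and 10 exceeded 1000 CPM. The annotation used here places 27 of the 30 in an intron, and 26 of those are solitary. Mir140 and Mir330 overlap an exon in some host transcripts, and Mir324 lies in an exon of Dvl2. Mir140 and Mir324 are among the 10. Mir335, in the imprinted gene Mest, led at 55222 ± 1165 CPM. Mir30e, in an intron of Nfyc, stood at 15951 ± 1565 CPM. Mir107, in the pantothenate kinase gene Pank1, was at 1592 ± 125 CPM, and its close relatives Mir103-2 and Mir103-1, in Pank2 and Pank3, at 62.3 ± 1.23 and 4.15 ± 0.204 CPM; all 3 share 20 nt with another precursor, so their counts are uncertain. Mir186, in Zranb2, stood at 335 ± 18.6 CPM. Mir33, in the sterol regulator gene Srebf2, was at 48.7 ± 2.83 CPM, and Mir211, in Trpm1, had 8 and 4 counts in replicates 1 and 2 and was not detected.

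Mir151 has close relatives in Mir28a and Mir708, which are grouped with it in the miR-28 family and are also alone in introns, of Lpp and Tenm4. Mir151 exceeded Mir28a, at 1470 ± 3.92 CPM, by 5.10-fold (log2 2.35 ± 0.0241). It exceeded Mir708, at 1443 ± 5.99 CPM, by 5.19-fold (log2 2.38 ± 0.0262, SD, n = 2). Both relatives share 20 nt with another precursor, so reads that map to several places may be missing from their counts and these folds are uncertain.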

How the data were processed

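The deposited values are raw read counts per microRNA gene for the mm10 assembly and release M4 of its annotation, per the file headers in each library's readme. For aligner and counter, no source used here gives a name. The columns have no header. Columns 3 and 4 add up to column 2, and column 3, which holds nearly all reads, was taken as the annotated strand and used. Reads mapped to several places (31.4% and 30.6% of reads in replicates 1 and 2) stand on a summary line and were kept out of library sizes. GENCODE M21 names matched 1894 of 1973 identifiers, version ignored, and all 7 members with the same version.

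CPM, means, SDs and log2 ratios were computed with Python 3.11.15, pandas 2.3.3 and scipy 1.17.1. The ratio procedure was tested on simulated counts that held counting error only. That test therefore does not cover the further spread between the pools. Detected means at least 10 counts in both libraries. RNAfold 2.7.2 folded hairpins. Alternatives used edgeR 4.0.16 TMM and DESeq2 1.42.0 size factors. Members and lists were chosen with earlier results of these data known. Genes named were the members, the nearest in level, seed sharers, the highest solitary intronic precursors, listed intronic microRNAs and markers; Mir345 and other nearest precursors, Gm27775 and Mir9-2 among those at 0, and Mir140's place were named for position or sequence. Host mRNA was not analysed here.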

Additional observations from a re-analysis of the deposited data

How the results depend on the processing

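Of 132 values recomputed under alternative settings, 113 kept their direction and their side of the threshold, or moved by no more than the spread between the replicates or, for counts of genes, by no more than 1.5 times. Each replicate taken alone gave such values for every result it could give. For levels, the summed share and the size of ratios between members this was fixed beforehand. With 2 libraries, each always lies within 1 SD of their mean, so those values among the 113 show no robustness. Per 1000000 reads of the whole library, the summed share was 1.63% and the levels of Mir151, Mir652, Mir744, Mir423, Mir342, Mir139 and Mir149 were 3555, 3336, 2942, 2152, 1761, 1363 and 1144, since the total then includes unmapped and multiply mapped reads. At that scale the log2 ratio of replicate 2 over replicate 1 for Mir744 was -0.020 and its interval included 0. With Mir143 left out of the total, the summed share was 3.72%, and Mir151, Mir652, Mir744, Mir342, Mir139 and Mir149 stood at 8139, 7639, 6736, 4032, 3119 and 2620 CPM. Mir423 rose as well, to 4930 CPM, which was within the spread between its replicates. With counts taken without regard to strand, all 7 levels were lower, since only the total grew. Mir151, at 7276 CPM, and Mir744, at 6023 CPM, moved by more than their small spread between the replicates. At least 1 count in either library was reached by 712 genes, against 357 with at least 10 counts in both. No ratio changed sign in the settings run, and the 7 members kept the order of their mean levels in each. Leaving out precursors with an exon in some host transcripts (553 in the table and 104 detected), and counting them as the alternative (620 and 117), were both chosen after seeing the data. No paired analysis was possible because the 2 libraries form 1 group.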

Other observations

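Mir208a and Mir208b, in introns of the heart myosin genes Myh6 and Myh7, are solitary intronic precursors whose levels differed between the libraries in opposite directions. They were named after their values were seen. Mir208a had 573 CPM in replicate 1 and 255 CPM in replicate 2, a log2 ratio of replicate 2 over replicate 1 of -1.17 (95% exact binomial interval -1.26 to -1.08). Mir208b had 269 and 780 CPM, a log2 ratio of 1.53 (1.45 to 1.62). Members of the abundant set differed by at most 0.26 in size on the same scale. Mir128-1, in an intron of R3hdm1 and known from the nervous system, had 118 and 70.9 CPM, a log2 ratio of -0.74 (-0.92 to -0.56); it shares 20 nt with another precursor, so its counts are uncertain.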
